A study of Mus musculus with 6 samples.

Results

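The mRNA levels of 10 genes for ligands and receptors of the platelet-derived growth factor (PDGF) and vascular endothelial growth factor (VEGF) families were followed in Met-1 TripZ-200c cells. They were the PDGF ligands Pdgfa, Pdgfb, Pdgfc and Pdgfd, the PDGF receptors Pdgfra and Pdgfrb, the VEGF ligands Vegfa, Vegfb and Vegfc, and the VEGF receptor Flt1. The genes were chosen by symbol from a table of 43548 gene identifiers. They were chosen with the outcome known, since Pdgfrb was lower with doxycycline (Dox) in these same libraries and VEGF and its receptors are reported targets of the miR-200 family. Their own differences between the groups are therefore described without p-values. Of the 10 genes, 9 averaged at least 1 FPKM across the 6 libraries and were among the 12879 genes tested. FPKM counts the fragments on a gene relative to its length and to the mapped reads of the library, so levels of different genes can be set side by side.

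Met-1 is a mouse mammary carcinoma line from a late-stage MMTV-PyMT tumor of the FVB/nJ strain. Met-1 TripZ-200c cells are a single clone of that line with an inducible lentiviral vector that carries an RFP tag and the precursor of miR-200c. One group (Minus Dox, 3 libraries) received vehicle and the other (Plus Dox, 3 libraries) received 1 µg/mL Dox, both for 48 h, and all 6 libraries came from cells with the vector. Empty-vector cells given Dox were not analysed here, so Dox itself and the induced miRNA cannot be told apart. The labels do not say that the 3 samples of a group were separate cultures beyond plating in triplicate, so the error terms measure the spread between these samples, which may be technical.

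PDGFs are secreted dimers that drive the growth and migration of mesenchymal cells such as fibroblasts and pericytes. They act through 2 receptor tyrosine kinases, PDGFRα and PDGFRβ. VEGFs are related dimers that act on receptor tyrosine kinases of blood and lymphatic endothelium, with the neuropilins as co-receptors. Carcinoma cells are a known source of both kinds of ligand. Carcinoma cells that have passed through an epithelial-to-mesenchymal transition (EMT) can also carry PDGF receptors.

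Pdgfrb showed the largest difference of the 10 genes. It stood at 32.4 ± 1.5 FPKM (SD, n = 3) without Dox and at 15.5 ± 0.212 FPKM (SD, n = 3) with Dox. Flt1, Vegfc, Pdgfa and Pdgfra were also lower with Dox. Pdgfb was the 1 gene whose values with Dox all lay above those without, at 6.32 ± 0.481 without and 10.3 ± 0.723 FPKM with Dox (SD, n = 3 each). Vegfb was slightly lower and not past the threshold, Pdgfc and Vegfa had overlapping values in the groups, and Pdgfd was listed at 0 in all 6 libraries. In limma with Benjamini-Hochberg adjustment over all genes tested, 6 of the 9 genes were past the threshold of 0.05. Over all genes that share was 15.0%, with 7.97% lower and 7.06% higher with Dox. In 7 of the 9 genes the groups did not overlap, as in 35.0% of all genes with 6 values. Since the contrast took part in the choice of the genes, nothing is read from these counts.

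**Figure D1:**
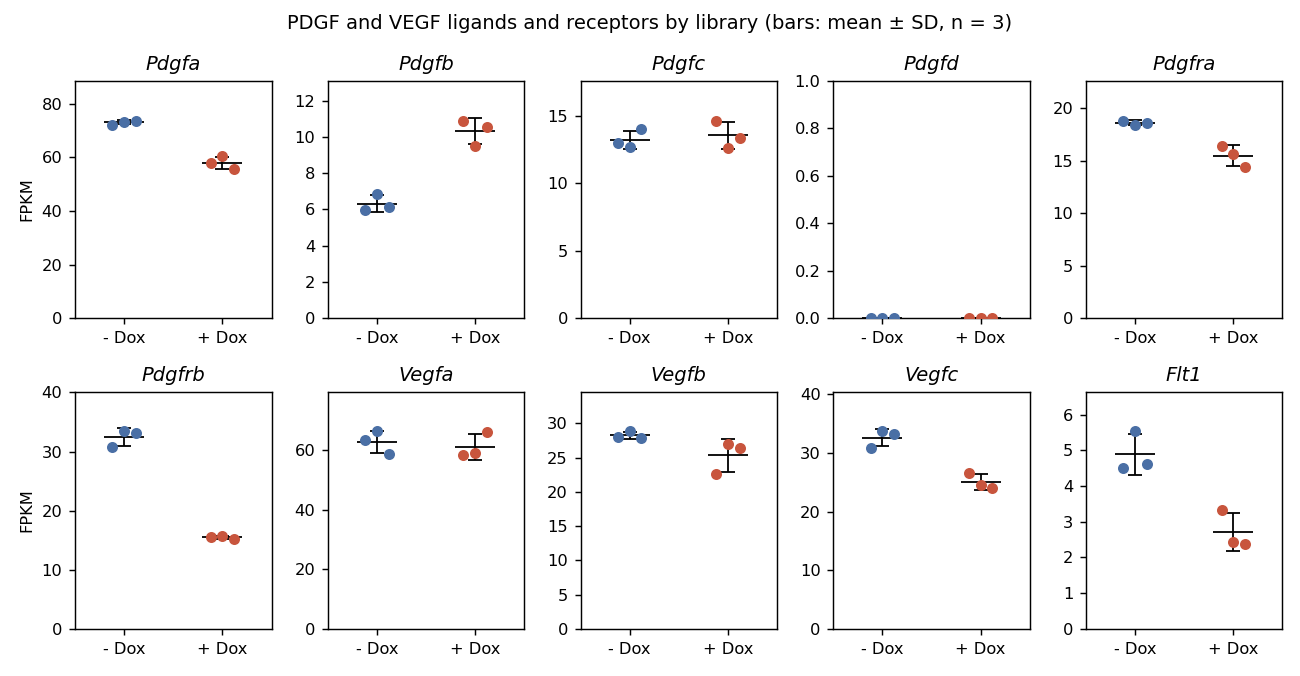
FPKM of the 10 ligand and receptor genes in each library (points), with the mean and SD of 3 libraries per group (black bars) and each y axis starting at 0. Pdgfrb separated widely between the groups, at 30.7 to 33.4 without and 15.3 to 15.7 FPKM with Dox, whereas Pdgfc and Vegfa overlapped and Pdgfd was listed at 0 throughout.

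The libraries differed in estimated depth. FPKM removes depth and read numbers are not known, so relative depth was estimated from the lowest values. With the first Minus Dox library set to 1, the other 5 libraries lay between 0.916 and 1.49. The libraries had from 16867 to 18012 genes above 0. The induced programme was present: Zeb1, an EMT transcription factor and a miR-200c target, was at 41.0, 42.1 and 42.3 FPKM without and at 19.8, 20.3 and 23.6 FPKM with Dox.

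Markers of cell types other than carcinoma cells were mostly low or at 0. Of 6 pericyte markers 0 averaged at least 1 FPKM. Their summed level was 0.0343 to 0.149 FPKM without and 0.105 to 0.124 FPKM with Dox, with Kcnj8 and Higd1b listed at 0. Of 8 endothelial markers 1 (Cdh5) reached a mean of 1 FPKM. The summed level of the 8 was 4.98 to 6.05 without and 4.88 to 6.39 FPKM with Dox, Pecam1 was at most 0.0848 FPKM, and Tie1 and Cldn5 were listed at 0. Of 8 fibroblast markers, Pdgfra itself was the 1 with a mean of at least 1 FPKM, and Lum, Dpt and Fap were listed at 0. Of 5 leukocyte markers listed, 1 (Cd68) reached that mean, Cd3e was listed at 0, and the sum was 6.39 to 11.3 without and 6.83 to 7.63 FPKM with Dox. For the label of a mammary carcinoma line, Krt18 and Cldn3 were present in both groups, at 91.2 FPKM or more in every library. Epcam (0.0844 to 0.161 FPKM) and Cdh1 (0.0419 to 0.0776 FPKM) were near 0 without Dox, and with Dox they stood at 3.88 to 4.31 and 0.554 to 1.24 FPKM. The summed level of 9 such markers was at most 204.7 FPKM without Dox and between 487 and 529 FPKM with it. Nearly all of it was Krt18 (mean 93.2 without and 386 with Dox) and Cldn3 (109 and 121), which both passed as higher. Epcam was tested only because its values with Dox raised its mean past 1 FPKM, so its call carries no weight. Krt8 (0.262 and 0.736), Esrp1 (0.0307 and 0.242), Cldn4 (0 and 0.0733) and Krt14 (0.0284 and 0.0998) averaged under 1 FPKM in both groups. Krt5 was listed at 0. The part of these marker differences in the values of the growth factor genes was not tested. In RNA from a whole culture, fewer cells that express a gene and less of its RNA per cell cannot be told apart.

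miR-200c acts by pairing its seed, bases 2 to 8 of the mature miRNA, with sites that lie mostly in the 3′ UTRs of mRNAs. The mature sequences of the family are shown because the seed decides which UTR sites count as matches below. They are the RefSeq entries on GRCm38.p6, written 5′ to 3′ with the seed in capitals, and mmu-miR-200c-3p lies on the minus strand at chr6:124718324-124718346. The first 3 share 1 seed, and the last 2 share another that differs from it at 1 base.
mmu-miR-200c-3p: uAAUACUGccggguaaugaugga
mmu-miR-200b-3p: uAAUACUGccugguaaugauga
mmu-miR-429-3p: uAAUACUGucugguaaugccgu
mmu-miR-200a-3p: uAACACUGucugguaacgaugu
mmu-miR-141-3p: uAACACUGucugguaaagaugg

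Sites for the seed of miR-200c were sought on the sense strand of the longest annotated 3′ UTR of each gene (GENCODE annotation of GRCm38). A match was CAGTATT, or its last 6 bases followed by A. Of the 10 genes, Vegfa and Vegfc held 1 match each and the other 8 held 0. Over the 10798 tested genes with an annotated 3′ UTR, 2291 (21.2%) held at least 1. The sites are shown in their surroundings, in DNA letters 5′ to 3′ on the strand of the mRNA with the match in capitals.
Vegfa, chr17:46017632-46017661, minus strand: taaagagtagggtttttttCAGTATTcttg
Vegfc, chr8:54186376-54186405, plus strand: tggtaaagctcactgtgatCAGTATTttta

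The Vegfa match began 1216 bases after the stop codon in a 3′ UTR of 1865 bases, and that of Vegfc began 327 bases after it in a 3′ UTR of 1028 bases. These 2 genes differed in their values, since Vegfa overlapped between the groups and Vegfc did not. The 3′ UTR of Flt1, 3971 bases long, held no 7-base match, and only 1 match to 6 bases of the site. That of Pdgfrb, 1678 bases long, held 0, and so did the rest of its longest-UTR transcript. Pdgfa (1203 bases), Pdgfb (1408 bases) and Vegfb (417 bases) also held 0. Pdgfc held 1 match, which lay before its 3′ UTR. A match is a run of letters and not a measured site, and its absence says nothing of other parts or isoforms of the mRNA.

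The other seed of the family is that of miR-200a and miR-141, whose levels were not measured here, and not that of the miRNA in the vector. It is given for comparison because Pdgfra and Pdgfc, which held no match for miR-200c, held matches for it. A match was CAGTGTT, or its last 6 bases followed by A, and 26.6% of the tested genes with a 3′ UTR held at least 1. Pdgfra held 3 in a 3′ UTR of 3115 bases, beginning 555, 1443 and 2515 bases after the stop codon, and Pdgfc held 1.
Pdgfra, chr5:75195636-75195665, plus strand: cgtgttttactgtcttgtaAGTGTTAaaga
Pdgfra, chr5:75196524-75196553, plus strand: cctggtgctcttgaatagtCAGTGTTcaga
Pdgfra, chr5:75197596-75197625, plus strand: atacatttttatttttaaaCAGTGTTttga
Pdgfc, chr3:81213726-81213755, plus strand: cctcgaccatttctaggcaCAGTGTTctgg

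**Figure D2:**
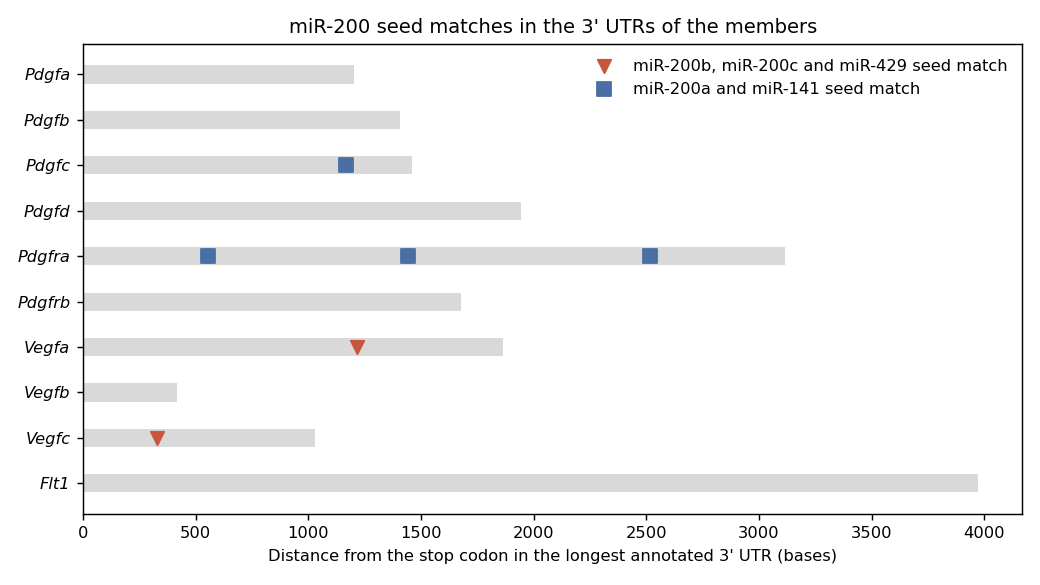
Position of seed matches (markers) along the longest annotated 3′ UTR (gray bars, in bases from the stop codon) of the 10 genes. The seed of miR-200c, miR-200b and miR-429 had matches in Vegfa and Vegfc, at 1216 and 327 bases, and that of miR-200a and miR-141 in Pdgfra and Pdgfc, while the UTRs of Pdgfrb, Pdgfb, Pdgfa, Pdgfd, Vegfb and Flt1 carry no marker.

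Among the PDGF ligands, Pdgfa was the most abundant in both groups. Pdgfa (ENSMUSG00000025856, chr5:138976014-138997370, minus strand) encodes the A chain, whose homodimer acts on PDGFRα. Its values were 72.2, 73.1 and 73.7 FPKM in the Minus Dox libraries and 57.8, 60.3 and 55.7 FPKM in the Plus Dox libraries. All 3 values with Dox lay under all 3 values without it, and the log2 difference was -0.33 (SE 0.0430). Exons of Pdgfa overlap those of the antisense gene 6330403L08Rik, which had a mean of 12.9 FPKM. The library kit keeps strand, but the strand setting of the quantification is not given in the sources used here, so reads of this pair may not be fully separated.

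Pdgfb moved the other way. It encodes the B chain, the ligand that binds both PDGF receptors, and lies on chromosome 15 from 79995874 to 80014977 (minus strand, ENSMUSG00000000489). Its FPKM was 5.94, 6.86 and 6.15 without Dox and 10.9, 9.51 and 10.6 with Dox. The lowest value with Dox was above the highest without it. The log2 difference was 0.70 (SE 0.0988), and 348 of the genes tested (2.70%) had a higher one. Leaving out each library in turn gave differences between 0.66 and 0.76.

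Pdgfc and Pdgfd encode ligands with a CUB domain that proteases must remove before they can bind a receptor. Pdgfc (ENSMUSG00000028019, chr3:81036416-81214040, plus strand) was at 13.0, 12.7 and 14.0 FPKM without and at 14.6, 12.6 and 13.4 FPKM with Dox. The groups overlapped, and the log2 difference of 0.03 (SE 0.0815) was smaller than its error. Over the alternatives it lay between -0.02 and 0.08. Pdgfd (ENSMUSG00000032006, chr9:6168584-6378850, plus strand), whose product acts mainly on PDGFRβ, was listed at 0 in each of the 6 libraries. In these files a 0 can also be a failed estimate, so no fold is given.

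The makeup of the PDGF ligand mRNA shifted with these values. Pdgfb was 6.83 ± 0.498% of the summed FPKM of Pdgfa, Pdgfb and Pdgfc without Dox and 12.6 ± 0.947% with Dox (SD, n = 3 each). The share of Pdgfa was 78.9 ± 0.356% without and 70.8 ± 2.05% with Dox. The share of Pdgfc was 14.3 ± 0.596% without and 16.6 ± 1.16% with Dox. The sum of the 3 ligands was 92.5 ± 1.38 FPKM without and 81.8 ± 1.94 FPKM with Dox. Pdgfa thus still made up most of the PDGF ligand mRNA in every library, at 69.4% or more.

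Pdgfrb encodes PDGFRβ, the receptor for PDGF-B and PDGF-D that marks pericytes and other mesenchymal cells. It lies on chromosome 18 of GRCm38 from 61045150 to 61085061 (plus strand, ENSMUSG00000024620). Its values were 30.7, 33.4 and 33.1 FPKM in the Minus Dox libraries and 15.5, 15.7 and 15.3 FPKM in the Plus Dox libraries. No value with Dox came near the lowest one without it. The log2 difference was -1.06 (SE 0.0567), a fold of 0.479, and 121 of the genes tested (0.940%) had a lower one. Over the alternatives the difference lay between -1.10 and -1.02, which is a description, since Pdgfrb was chosen for being lower in these libraries. The defining pericyte markers were at or near 0 in both groups, as given above.

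Pdgfra (ENSMUSG00000029231, chr5:75152292-75198215, plus strand) encodes PDGFRα, which binds the A, B and C chains. Its FPKM was 18.8, 18.4 and 18.6 without Dox and 16.4, 15.6 and 14.4 with Dox. The groups did not overlap, but the gap between them was small, and the log2 difference was -0.27 (SE 0.0681). The call was lost when any 1 of the 6 libraries was left out, although the difference stayed between -0.31 and -0.22. Its exons overlap those of the antisense genes Gm42802 and Gm42803, neither of which is in the table.

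Together the 2 PDGF receptors summed to 51.0 ± 1.31 FPKM without and 30.9 ± 1.18 FPKM with Dox (SD, n = 3 each). The ratio of Pdgfrb to Pdgfra was 1.63, 1.82 and 1.78 without Dox and 0.945, 1.00 and 1.06 with Dox. Pdgfrb was the more abundant receptor in all 3 Minus Dox libraries, whereas with Dox the receptors stood at nearly equal FPKM. The share of Pdgfrb in their sum was 63.5 ± 1.33% without and 50.1 ± 1.47% with Dox (SD, n = 3 each).

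**Figure D3:**
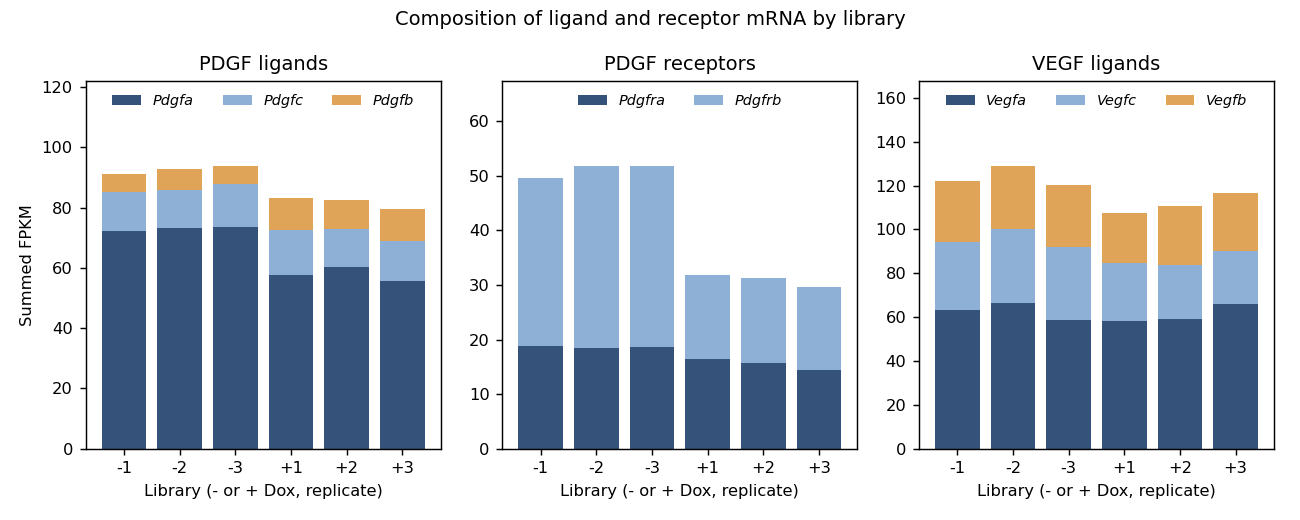
Summed FPKM of the PDGF ligands, PDGF receptors and VEGF ligands in each library (bars starting at 0, split by gene; minus and plus stand for without and with Dox). The Pdgfrb segment was about as large as that of Pdgfra with Dox (ratio 0.945 to 1.06) and larger without Dox (1.63 to 1.82), and Vegfa made up 49.0% to 56.7% of the VEGF ligand mRNA throughout.

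Vegfa was the most abundant VEGF ligand and did not separate the groups. It encodes the main ligand of blood vessel growth and lies on chromosome 17 from 46016993 to 46032369 (minus strand, ENSMUSG00000023951). Its values were 63.3, 66.4 and 58.8 FPKM in the Minus Dox libraries and 58.3, 59.0 and 66.1 FPKM in the Plus Dox libraries. The values were interleaved, with a log2 difference of -0.04 (SE 0.0672). Leaving out each library gave differences between -0.10 and 0.0007.

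Vegfc, which acts on lymphatic endothelium through VEGFR3, was lower with Dox. The gene (ENSMUSG00000031520) lies on chromosome 8 from 54077606 to 54187096 on the plus strand. Its values were 30.9, 33.7 and 33.3 FPKM in the Minus Dox libraries and 26.5, 24.6 and 24.0 FPKM in the Plus Dox libraries. The groups did not overlap, and the log2 difference was -0.38 (SE 0.0622), or -0.42 to -0.35 with each library left out in turn.

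Vegfb, a ligand of VEGFR1 and neuropilin-1 (ENSMUSG00000024962, chr19:6982473-6987651, minus strand), was at 28.1, 28.9 and 27.9 FPKM without Dox. With Dox it was at 22.6, 27.0 and 26.4 FPKM. The groups did not overlap, yet the first Plus Dox library lay well under the other 2, and the log2 difference of -0.16 (SE 0.0758) was not past the threshold. Without that library it was -0.08.

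The VEGF ligands summed to 124 ± 4.64 FPKM without and 111 ± 4.57 FPKM with Dox (SD, n = 3 each). Vegfa made up 50.7 ± 1.53% of the sum without and 54.8 ± 1.74% with Dox. The share of Vegfc was 26.4 ± 1.2% without and 22.5 ± 2.07% with Dox. That of Vegfb was 22.9 ± 0.457% without and 22.7 ± 1.67% with Dox, so it stayed within its spread.

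Flt1 was the least abundant of the 9 genes tested. It encodes VEGFR1, a high-affinity receptor for VEGF-A and VEGF-B that can act as a decoy, and lies on chromosome 5 from 147561604 to 147726011 (minus strand, ENSMUSG00000029648). Its FPKM was 4.51, 5.53 and 4.61 without Dox and 3.33, 2.44 and 2.36 with Dox. The groups did not overlap, but the spread within each was wide for their distance. The log2 difference was -0.84 (SE 0.180), and 211 of the genes tested (1.64%) had a lower one. The call was lost without Minus Dox replicate 2 (-0.75) or 3 (-0.88) and without Plus Dox replicate 2 (-0.77) or 3 (-0.75). It was also lost with no filter on low values, in the model without moderation, with the replicate block and at an adjusted p under 0.01.

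**Figure D4:**
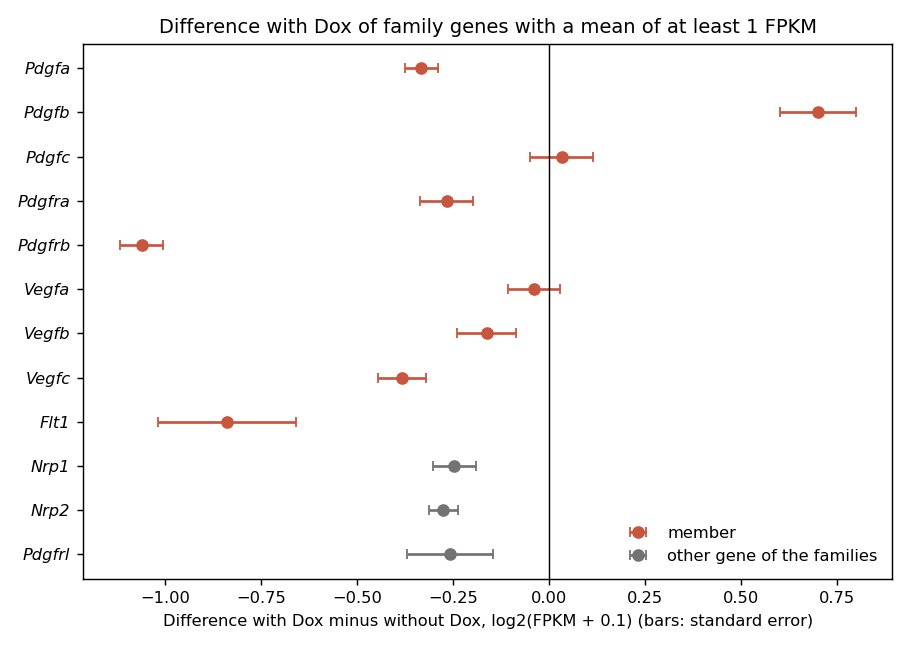
Difference with minus without Dox on the log2(FPKM + 0.1) scale (x axis) with its standard error (bars) for the 9 tested members and 3 other family genes. Pdgfrb at -1.06 and Flt1 at -0.84 lay farthest left, Pdgfb at 0.70 was the gene on the right that exceeded its error, and the neuropilins Nrp1 and Nrp2 lay at -0.25 and -0.28.

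The order of the levels differed in part between the groups, with Pdgfb and Flt1 last among the genes above 0 in both. Without Dox it ran from Pdgfa through Vegfa, Vegfc, Pdgfrb, Vegfb, Pdgfra, Pdgfc and Pdgfb to Flt1. In that order Vegfc and Pdgfrb were the 1 pair of neighbors whose ranges overlapped. With Dox it ran from Vegfa through Pdgfa, Vegfb, Vegfc, Pdgfrb, Pdgfra, Pdgfc and Pdgfb to Flt1. Here Vegfa and Pdgfa overlapped, Vegfb and Vegfc overlapped, and Pdgfrb overlapped Pdgfra, which overlapped Pdgfc. Pdgfa exceeded 81.6% of the genes tested without Dox and 76.1% with Dox. Pdgfrb exceeded 60.3% without and 39.5% with Dox, and Flt1 17.5% and 10.9%.

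The genes whose pattern over the 6 libraries was most like that of Pdgfrb were Pkd1, Qk, Aqp1, Tnfaip2 and Adamts14. Likeness was the root mean square difference of log2(FPKM + 0.1) after the mean of each gene was subtracted, and it was 0.0644, 0.0681, 0.0718, 0.0766 and 0.0802 for these genes. Pkd1, which encodes polycystin-1, stood at 24.5 ± 0.631 FPKM without and 11.8 ± 0.346 FPKM with Dox (SD, n = 3 each). Qk, which encodes the RNA-binding protein quaking, stood at 76.3 ± 4.30 and 38.0 ± 1.40 FPKM. As they were picked from all genes tested for this likeness, their values are a description.

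Of 7 other genes of the families, 3 averaged at least 1 FPKM. Nrp2, a co-receptor for VEGF-C, fell from 104 ± 2.10 to 85.5 ± 2.37 FPKM (SD, n = 3 each), and the groups did not overlap. Its log2 difference was -0.28 (SE 0.0378, adjusted p = 0.00414 from limma). Nrp1, a co-receptor for VEGF-A, fell from 19.0 ± 0.184 to 16.0 ± 0.366 FPKM, with a difference of -0.25 (SE 0.0550, adjusted p = 0.0264 from limma). The Nrp1 call was lost without any 1 of the 6 libraries, with differences of -0.26 to -0.23 and an adjusted p from limma of 0.0120 to 0.0947 over all alternatives. Pdgfrl, a gene for a receptor-like protein with no kinase domain, had a difference of -0.26 (SE 0.112, adjusted p = 0.180 from limma). The receptor genes for endothelium were low or at 0. Kdr (VEGFR2) was at 0.121 to 0.373 FPKM over the 6 libraries, and Flt4 (VEGFR3) was listed at 0. The ligands Pgf and Figf (VEGF-D) were at 0.347 to 0.802 and 0.262 to 0.771 FPKM.

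Around the ligands and receptors, 80 genes were examined in 6 lists. Some held the 7 family genes above, proteases that process the ligands, and binding or modulating proteins outside the cell. The rest held docking and signal proteins of the receptors, proteins that turn over or dampen the receptors, and oxygen sensing upstream of Vegfa. Of the 80 genes, 65 were tested, and by limma 7 were higher and 19 lower with Dox. Over all genes tested the shares were 7.06% and 7.97%, or 15.0% in both directions. The counts per list below are to be set beside these shares, and nothing is read from them. The median log2 difference was -0.09 over the 65 genes, against 0.004 over all genes tested. Of the 26 genes, 17 were past the threshold in each of the 6 fits that left out 1 library. The lists were written with earlier results of these data known.

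Of 6 tested proteases and cofactors that process the ligands, 1 changed. Adamts14, a procollagen protease related to the VEGF-C processing enzyme Adamts3, fell from 15.8 ± 0.354 to 8.21 ± 0.287 FPKM (SD, n = 3 each), a log2 difference of -0.94 (SE 0.0683, adjusted p = 3.24e-04 from limma). Furin, a proprotein convertase, was at 84.1 ± 2.05 and 85.4 ± 4.36 FPKM. Plau, a protease gene for urokinase, was at 1.95 ± 0.336 and 1.99 ± 0.0817 FPKM. Ccbe1, which encodes a cofactor for processing VEGF-C, was at 8.40 ± 1.15 and 8.20 ± 1.58 FPKM. For these 3 genes the groups overlapped.

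Of 11 tested genes for binding or modulating proteins outside the cell, 3 rose and 6 fell. The list is not one of ligand binders alone, since Vasn and Vash2, described below, are on it. Thbs1, which encodes thrombospondin-1, a matrix protein that restrains vessel growth, was at 239, 237 and 242 FPKM without and at 424, 425 and 420 FPKM with Dox. Its log2 difference was 0.82 (SE 0.0251, adjusted p = 8.78e-06 from limma). Ctgf, a VEGF-A binding matricellular protein gene, and Sdc1, which encodes a heparan sulfate proteoglycan, rose with log2 differences of 0.26 and 0.27 (adjusted p = 0.00204 and 0.00501 from limma). Lrp1, which encodes an endocytic receptor that also associates with PDGFRβ, was at 174, 167 and 166 FPKM without and at 82.9, 97.9 and 88.7 FPKM with Dox. Its log2 difference was -0.91 (SE 0.0622, adjusted p = 2.33e-04 from limma).

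The other genes of this list that fell did so by different amounts. Vasn, which encodes vasorin, a surface protein known to bind TGF-β, fell from 66.6 ± 3.30 to 39.5 ± 0.351 FPKM (SD, n = 3 each; log2 difference -0.75, adjusted p = 2.01e-04 from limma). Sparc, a PDGF-binding matrix protein gene, and the proteoglycan genes Sdc2 and Sdc4 each fell by 0.25 on the log2 scale, and limma gave adjusted p-values of 0.00114, 0.00939 and 0.00167. Vash2, which encodes vasohibin-2, a tubulin carboxypeptidase tied to vessel growth, was at 6.61, 5.38 and 4.27 FPKM without and at 2.84, 2.87 and 2.15 FPKM with Dox. Its log2 difference was -1.01 (SE 0.205, adjusted p = 0.0184 from limma, 0.0181 to 0.0761 over the alternatives). That call was lost without Minus Dox replicate 1 or 2 or Plus Dox replicate 3, with differences of -1.0 to -0.86.

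All 28 docking and signal proteins of the receptors were tested, and 3 rose and 7 fell. Src, which encodes a tyrosine kinase that binds activated PDGF and VEGF receptors, was at 81.3, 91.8 and 79.9 FPKM without and at 152, 160 and 158 FPKM with Dox. Its log2 difference was 0.90 (SE 0.0581, adjusted p = 2.01e-04 from limma). Slc9a3r1, which encodes the PDGFRβ-binding scaffold NHERF1, rose from 187 ± 2.36 to 235 ± 1.09 FPKM (SD, n = 3 each; log2 difference 0.33, adjusted p = 5.42e-04 from limma). Yes1, a kinase gene of the Src family, had a difference of 0.25 (adjusted p = 0.0420 from limma, 0.0359 to 0.134 over the alternatives), and its call was lost without any 1 of the 6 libraries (0.21 to 0.29).

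Plcg1, which encodes the phospholipase C that docks on both receptor families, was at 47.3, 42.0 and 55.3 FPKM without and at 32.6, 27.9 and 32.5 FPKM with Dox. Its log2 difference was -0.63 (SE 0.110, adjusted p = 0.0108 from limma, 0.00683 to 0.0729 over the alternatives), and the call was lost in a linear model per gene without moderation. The adaptor genes Gab2 and Shc1 fell by 0.52 and 0.28 on the log2 scale (adjusted p = 0.00917 and 0.00617 from limma). Fyn, a kinase of the Src family, and the adaptor genes Shf and Crkl had differences of -0.27, -0.24 and -0.23 (adjusted p = 0.0163, 0.0187 and 0.0195 from limma). Over the alternatives their adjusted p-values reached 0.0665, 0.0608 and 0.0746. The call was lost without 3 of the 6 libraries for Fyn (Minus Dox replicate 1 and Plus Dox replicates 1 and 2, with differences of -0.28 to -0.25). It was lost without 4 for Shf (Minus Dox replicate 3 and each Plus Dox replicate, -0.25 to -0.20) and 4 for Crkl (Minus Dox replicate 2 and each Plus Dox replicate, -0.24 to -0.20). Pik3r2, a regulatory subunit of PI3K, lay outside the rule for named genes and was named after its values were seen. Its difference was -0.19 (adjusted p = 0.0234 from limma, up to 0.0720 over the alternatives), and Plus Dox replicate 2 was the 1 library whose omission left the call.

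Seed matches for miR-200c were also counted in this wider set. Of the 65 tested genes, 22 (33.8%) held at least 1 in their 3′ UTR, against 21.2% of all tested genes with one. Among the 19 lower genes 8 (42.1%) held a match, among the 7 higher genes 1 (14.3%, Yes1) and among the 39 others 13 (33.3%). Among all tested genes, those with a match had a median 3′ UTR of 2511 bases and those without had 950. These medians are not of the lower, higher and other genes, and the part of UTR length in their shares was not tested. Over all tested genes with a 3′ UTR, the median log2 difference was -0.04 with a match and 0.01 without. The 3 longest matches among the lower docking genes, in which all 7 bases are followed by A, are shown as for Vegfa and Vegfc. They began 620, 1804 and 3465 bases after the stop codon.
Plcg1, chr2:160762738-160762767, plus strand: ggatcatgataaaaatagCAGTATTAattt
Gab2, chr7:97306805-97306834, plus strand: atgaatggttgcactgagCAGTATTAcaag
Crkl, chr16:17487242-17487271, plus strand: tttgtgctataaaattaaCAGTATTAaatg

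Of 9 tested genes that turn over or dampen the receptors, 1 rose and 2 fell. Ptpn2, which encodes a phosphatase that acts on PDGFRβ and VEGFR2, rose from 104 ± 2.84 to 124 ± 2.15 FPKM (SD, n = 3 each; log2 difference 0.26, adjusted p = 0.00414 from limma). Socs3, a feedback inhibitor gene of cytokine signalling, fell from 30.8 ± 0.878 to 22.2 ± 0.340 FPKM (log2 difference -0.47, adjusted p = 0.00138 from limma). Cblb, a ubiquitin ligase gene, had a difference of -0.28 (adjusted p = 0.0379 from limma, 0.0352 to 0.121 over the alternatives). The Cblb call was lost without any 1 of the 6 libraries, with differences of -0.32 to -0.25. Cbl, the related ligase gene, was at 17.0 ± 0.672 without and 16.9 ± 0.551 FPKM with Dox.

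Of 8 tested oxygen-sensing genes upstream of Vegfa, 1 passed the threshold. In 4 of them (Egln3, Epas1, Vhl and Hif1an) the groups did not overlap, a separation found in 35.0% of all genes. Egln3, which encodes a prolyl hydroxylase that marks HIF-α for destruction, had a log2 difference of -0.22 (SE 0.0533, adjusted p = 0.0330 from limma, 0.0269 to 0.0995 over the alternatives). That call held only without Minus Dox replicate 1 among the 6 fits that left out a library, and in the 5 others the difference was -0.24 to -0.19. Hif1a, the oxygen-regulated subunit of HIF-1, was at 77.8, 74.9 and 81.5 FPKM without and at 71.3, 74.9 and 77.2 FPKM with Dox. Epas1, which encodes HIF-2α, was at 7.22 ± 0.520 without and 5.51 ± 0.483 FPKM with Dox (SD, n = 3 each). Its difference of -0.39 (SE 0.111) had an adjusted p of 0.0617 from limma. Over the alternatives that value lay between 0.0487 and 0.174, and it was under 0.05 only in limma without the trend. Vhl, which encodes the ligase subunit that recognizes hydroxylated HIF-α, and Hif1an, which encodes an asparagine hydroxylase of HIF, had differences of 0.15 and 0.21 (adjusted p = 0.187 and 0.106 from limma).

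**Figure D5:**
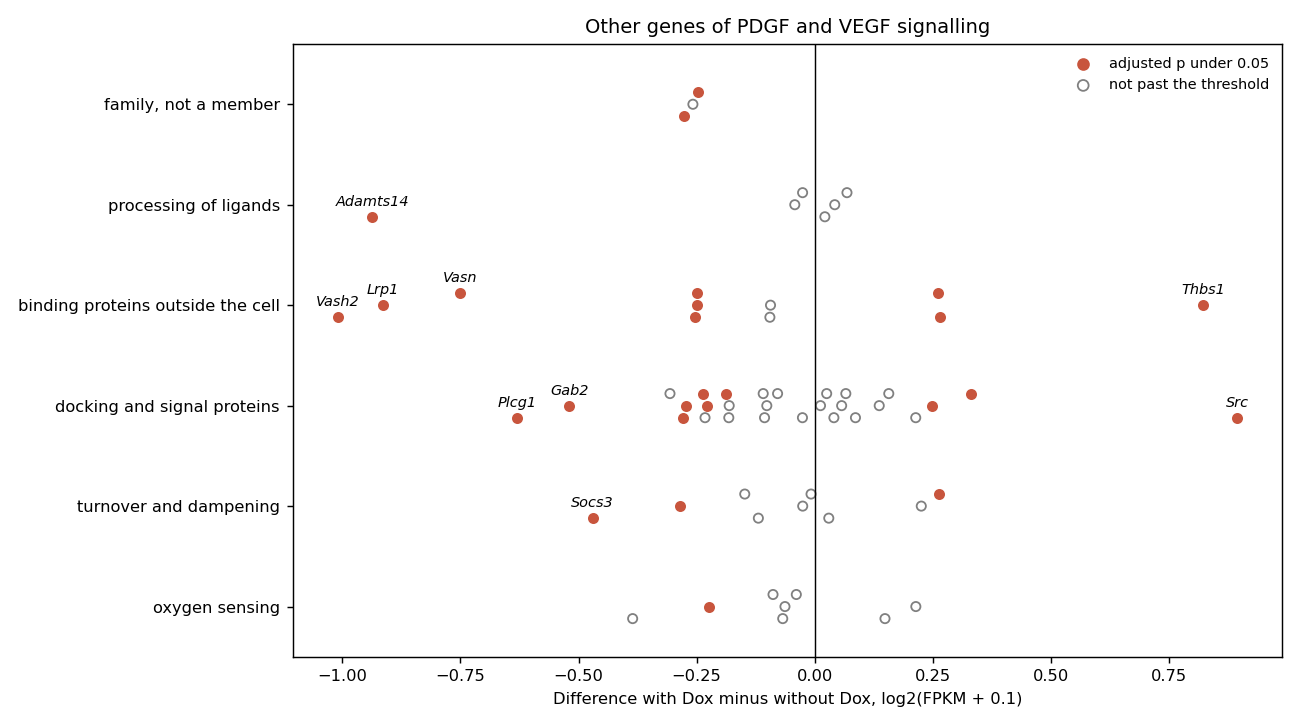
Difference with minus without Dox on the log2(FPKM + 0.1) scale (x axis) for the 65 tested pathway genes, 1 row per list, filled where the adjusted p from limma was under 0.05 and named where the filled point lay at 0.45 or more from 0. Src at 0.90 and Thbs1 at 0.82 lay farthest right, Vash2 at -1.01, Adamts14 at -0.94 and Lrp1 at -0.91 farthest left, and the oxygen-sensing genes between -0.39 and 0.21.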

How the data were processed

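RNA of 6 Met-1 TripZ-200c samples was extracted with TRIzol, and libraries from a stranded TruSeq kit were sequenced as single reads. The authors mapped the reads with gSNAP to the mouse genome (GRCm38.p6 in the submitters' processing notes; an FVB/NJ assembly is also named) and used Cufflinks for expression; the deposited unit is FPKM per gene and library. The table also holds group means, fold changes, p-values and q-values from the authors' own comparison, which were not used. Its 43611 rows have 43548 identifiers; of repeated identifiers or symbols the row highest on average was used. A placeholder in 6 cells of 4 genes was treated as missing.

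Groups were taken from the sample labels. Genes averaging at least 1 FPKM entered limma 3.58.1 (R 4.3.3) on the scale of log2(FPKM + 0.1) (lmFit, eBayes with a trend; group as the only term; Benjamini-Hochberg, threshold 0.05), a code tested on simulated data. This scale understates the change of low genes. With 3 against 3 libraries, no permutation test of a single gene was used. Depth is unknown, so no counting intervals are given.

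The members and the lists were chosen with earlier results of these data known. Beside the members, the genes named are other family genes, up to 6 genes per list and direction with the smallest adjusted p, Zeb1 as a check, marker genes, and the 5 genes nearest to Pdgfrb; list genes named that did not pass were chosen after their values were seen. UTRs are those of GENCODE M21; mature miRNAs are from RefSeq (5 of 5 matched). The longest transcript of each member was compared with all transcripts by BLAST 2.17.0. The largest share of a member's length found in another gene was 4.2%, that of Pdgfc in Gm16000. Pdgfra and Vegfa shared stretches with 675 and 255 other genes, at most 0.951% and 1.77% of their length with any 1 gene. Alternatives were 2 other pseudocounts, 2 filters, 2 scalings, 2 models, the replicate block, 2 stricter calls and leaving out each library. Tables and plots were made in Python 3.11.15 (pandas 2.3.3, matplotlib 3.10.9).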

Additional observations from a re-analysis of the deposited data

How the results depend on the processing

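The members were chosen with this contrast known, so how many of them pass a threshold under other settings is a description and no sign of stability. Members that were lower and past the threshold numbered 5, and 3 with no filter on low values, with a linear model per gene that was not moderated, on log2(FPKM + 1), with the replicate block or at an adjusted p under 0.01. In each of these settings the members lost were Pdgfra and Flt1. With a minimum change of 1.5-fold 3 members were past the threshold, 2 of them lower. With each library left out in turn, 4 to 5 members passed and 3 to 4 were lower. Over all genes, the unmoderated model called 598 genes higher. At an adjusted p under 0.01, 770 genes changed (357 higher, 413 lower), with 16 pathway genes. With a minimum change of 1.5-fold, 452 changed (221 higher, 231 lower), with 7 pathway genes. Leaving out each library gave 1048 to 1359 changed genes, 471 to 671 higher and 577 to 699 lower, and 18 to 20 pathway genes. The fits that left out a library have fewer samples. The stricter threshold and the minimum change were cuts on the main fit, so they could only lower the counts. The cause of the remaining shifts was not tested.

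The replicate numbers are shared by the groups but name no shared culture. The correlation of same-numbered libraries' deviations from their group means was 0.0287, 0.0359 and -0.00759, so they were not treated as pairs. Replicate 3 without Dox correlated best with replicate 1 with Dox. With the replicate block 1337 genes changed (633 higher, 704 lower), with 4 members and 20 pathway genes. Depth is unknown in FPKM, so how far it limits low genes such as Flt1 was not tested.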
